A study of Mus musculus with 4 samples.

Results

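Hnf4a, Hnf4g, Foxa3 and Onecut2, transcription factor genes first described in hepatocytes and also active in gut epithelium, were examined for open chromatin in mouse lung tumours. The 4 genes were taken by name from 21887 protein-coding genes, and every region of open chromatin that overlapped one of them or lay within 10 kb of it was counted. This gave 13 of the 61972 regions of the series: 6 at Hnf4a, 1 at Hnf4g, 4 at Foxa3 and 2 at Onecut2. The assay was ATAC-seq: a transposase cuts accessible DNA, and a peak marks a stretch where its cuts pile up.

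The KrasLA1;Dicer1S2D group held lung tumours of 2 C57B6J mice with 1 copy each of KrasLA1 and of Dicer1S2D, a phosphomimetic allele of Dicer1, the enzyme that cuts microRNAs from their precursors. The KrasLA1 group held lung tumours of 2 C57B6J mice with 1 copy of KrasLA1, the latent oncogenic allele that both groups share and that becomes active by spontaneous recombination, in whichever cells this happens. All mice were 55 weeks old, and in both groups replicate 1 was a female and replicate 2 a male, so sex and replicate number cannot be told apart. Dissected tumour was used without a sort of cells named in the labels, so few cells of a type and closed chromatin in those cells cannot be told apart.

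HNF4 proteins are nuclear receptors that bind DNA as dimers and hold the enterocyte and hepatocyte programmes in place, with Hnf4a in liver, stomach, intestine and kidney and Hnf4g strongly in intestine. Foxa3 is a forkhead factor of endodermal organs that can bind packed nucleosomal DNA, and Onecut2 is a cut-homeodomain factor of liver, pancreas and gut. Hnf4a is read from an upstream start, P2, used in stomach, intestine and pancreas, and from a downstream start, P1, used in adult liver, intestine and kidney. In normal lung the lineage factor Nkx2-1 is active, and HNF4A is known from mucinous lung tumours that have lost it.

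The RefSeq sequences before the starts of Hnf4a and Foxa3 are shown because the libraries divided at the upstream Hnf4a start, had no peak at the downstream one, and were all open at the Foxa3 start. Of the 4 genes, 2 matched the promoter sequences used here. Each sequence is the 250 bases before a start, in GRCm38.p6, the assembly of mm10, read 5′ to 3′ on the strand of the gene. Capitals mark matches to the motifs described after them.
Hnf4a upstream start, chr2:163506607-163506856, plus strand: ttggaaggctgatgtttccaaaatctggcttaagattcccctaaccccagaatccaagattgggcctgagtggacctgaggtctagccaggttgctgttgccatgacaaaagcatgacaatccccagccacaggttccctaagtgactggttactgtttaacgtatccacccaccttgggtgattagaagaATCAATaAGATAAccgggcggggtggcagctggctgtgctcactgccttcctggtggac
Hnf4a downstream start, chr2:163546905-163547154, plus strand: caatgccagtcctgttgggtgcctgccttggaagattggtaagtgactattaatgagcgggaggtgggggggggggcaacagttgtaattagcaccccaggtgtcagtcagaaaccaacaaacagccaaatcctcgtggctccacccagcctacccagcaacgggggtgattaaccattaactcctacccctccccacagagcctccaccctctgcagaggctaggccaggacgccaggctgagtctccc
Foxa3 start, chr7:19023540-19023789, minus strand: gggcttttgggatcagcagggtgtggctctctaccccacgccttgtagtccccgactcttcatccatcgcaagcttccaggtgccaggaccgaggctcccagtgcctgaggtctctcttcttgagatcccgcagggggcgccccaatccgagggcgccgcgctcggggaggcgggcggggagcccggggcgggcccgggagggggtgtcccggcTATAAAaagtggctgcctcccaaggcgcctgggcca

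Both strands of these sequences were searched for motifs of the factors and their partners. The letters were TGTTTAC for the FOXA family, ATTGAT for the ONECUT family, CAAAGTCCA or the direct repeat form CAAAGGTCA for HNF4, AGATAA for the zinc-finger factors of the Gata family and TATAAA for the core promoter box of that name. The upstream Hnf4a sequence held 1 ONECUT match, on the minus strand at positions -59 to -54 from the start, and 1 Gata match on the plus strand at -52 to -47. The downstream Hnf4a sequence held none of these motifs. The Foxa3 sequence held the core promoter box at -36 to -31 on the strand as printed, which is the minus strand of the chromosome. The matches did not overlap each other, and the FOXA and HNF4 letters were not in these windows. Among 32817 sequences of the same length before RefSeq starts, 6.73% held the ONECUT motif, 9.99% the Gata motif, and 12.4% the core promoter box. FOXA letters were in 3.16% and the HNF4 forms in 0.384% and 0.427%. A match describes the letters and is not evidence of binding.

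The 3 sequences differed in CpG content. The Foxa3 sequence was 68.8% G and C with 18 CpG, while the Hnf4a sequences had 51.2% and 3 CpG upstream and 57.6% and 4 CpG downstream. Among starts with 18 or more CpG in these 250 bases, 77.6% of 7110 windows of 300 bases around the start had a peak in all 4 libraries. Among starts with 4 or fewer, 4.88% of 14584 had one in all 4 and 89.7% in no library.

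The deposited values tell where a peak was called and how wide it was, with no height or read count, and the depth of the libraries is unknown. The KrasLA1;Dicer1S2D libraries had 50282 and 34767 peaks (replicates 1 and 2) and the KrasLA1 libraries 41621 and 44654, so KrasLA1;Dicer1S2D replicate 2 had the fewest. Of 8 marker genes of lung tumour epithelium, including Sftpc, Nkx2-1 and Epcam, all 8 had a peak in each library. They held 33 and 24 peaks in KrasLA1;Dicer1S2D and 27 and 31 in KrasLA1. Of the 8, 1 (Nkx2-1) had a region in both KrasLA1 libraries alone, against 4.87% of autosomal coding genes with a region. Of 3 leukocyte markers, 2 had a peak in each library (8 and 5 peaks against 5 and 7). Of 2 endothelial markers 1 did (5 and 4 against 4 and 5). Both fibroblast and smooth muscle markers did (6 and 3 against 6 and 6), and Acta2 among them also had regions in both KrasLA1 libraries alone. Of 4 hepatocyte markers, 1 and 0 had a peak in KrasLA1;Dicer1S2D replicates 1 and 2 and 1 and 0 in KrasLA1 replicates 1 and 2. These were different genes, Alb (224 bp) in KrasLA1;Dicer1S2D replicate 1 and Serpina1a (825 bp) in KrasLA1 replicate 1. Tat and Cps1 were without a peak in every library. Of 6 gut markers, 5 and 4 had a peak in KrasLA1;Dicer1S2D and 5 and 4 in KrasLA1, with 9 and 5 peaks against 7 and 5. Cdx2, Vil1, Cdh17 and Gkn1 had a peak in each library. Cdx1 had 290 bp in KrasLA1;Dicer1S2D replicate 1 and 585 bp in KrasLA1 replicate 1, and 0 in both replicate 2 libraries. With Vil1 it made 2 gut markers with a region in both replicate 1 libraries alone, against 14.9% of autosomal coding genes with a region. Tff1, a secreted peptide of gastric mucous cells, had 0 in all 4 libraries.

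**Figure D1:**
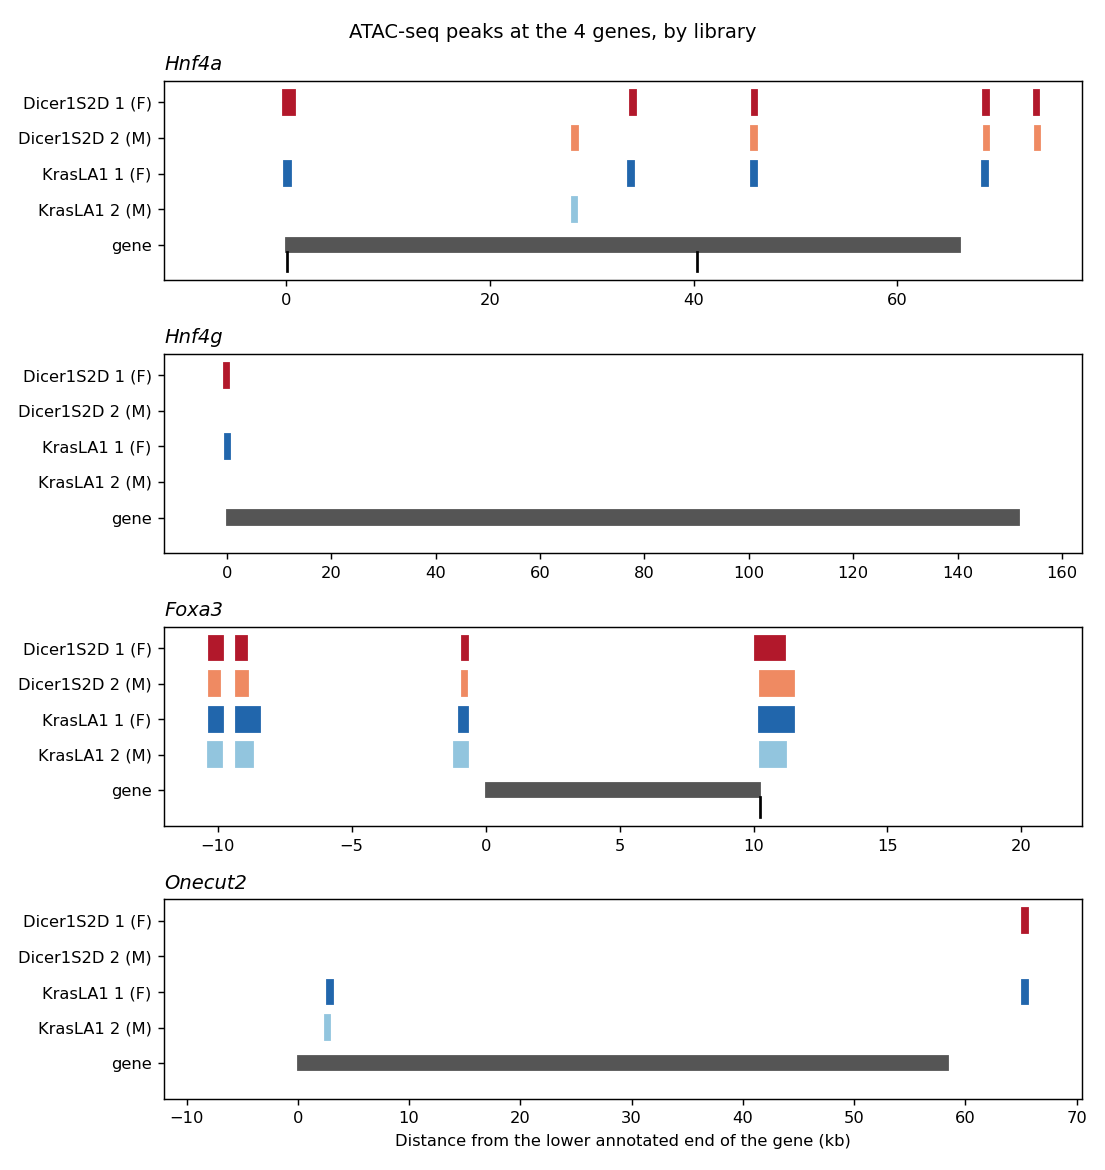
Peaks of the 4 libraries along each gene, as the distance in kb from the lower annotated end of the gene; grey bars are gene bodies, black ticks are annotated starts of Hnf4a and Foxa3, and peaks too narrow to see were widened. Dicer1S2D stands for KrasLA1;Dicer1S2D, 1 and 2 for the replicate, F for female and M for male. A reader should see peaks at the upstream Hnf4a start and at the lower end of Hnf4g in both replicate 1 libraries, and 4 peaks at Foxa3 in every library.

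At Hnf4a, the tumours divided by replicate number at the upstream start and by genotype at 1 region beyond the gene. The region at the upstream start (chr2:163506482-163507608) had a peak of 1127 bp in KrasLA1;Dicer1S2D replicate 1 and 0 in replicate 2, against 701 bp in KrasLA1 replicate 1 and 0 in replicate 2. The 2 female tumours thus had a peak there and the 2 male tumours had none. Both peaks covered all 250 bases printed above, ONECUT and Gata letters included. Within its own library the peak was wider than or equal to 95.5% of peaks in KrasLA1;Dicer1S2D replicate 1 and 74.0% in KrasLA1 replicate 1. Of 32817 windows of 300 bases at RefSeq starts, 0.664% had a peak in both replicate 1 libraries and neither replicate 2 library.

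The downstream Hnf4a start, 40298 bp from the upstream one, had no peak in any of the 4 libraries, as was the case for 58.3% of start windows. The regions nearest to it lay on either side. One, 6181 bp before it (chr2:163540435-163540974), had peaks of 267 bp in KrasLA1;Dicer1S2D replicate 1 and 464 bp in KrasLA1 replicate 1 and 0 in both replicate 2 libraries. The other, 5386 bp after it (chr2:163552541-163552936), had peaks of 315 and 204 bp in KrasLA1;Dicer1S2D replicates 1 and 2, against 396 bp and 0 in KrasLA1 replicates 1 and 2. The first again had a peak in the female tumours alone, and the second had none in KrasLA1 replicate 2.

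A narrow region 28149 bp after the upstream start (chr2:163535006-163535244) had the reverse pattern, with 198 bp in KrasLA1;Dicer1S2D replicate 2 and 195 bp in KrasLA1 replicate 2 and 0 in both replicate 1 libraries. These peaks were among the narrowest of their libraries, wider than or equal to 6.81% and 2.32% of peaks. The regions from the upstream start to 163540974 also lie in Hnf4aos, a long non-coding RNA gene that overlaps Hnf4a, and ATAC-seq does not tell the strands apart.

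Beyond the gene, a region 2178 bp from its end (chr2:163575085-163575740) had 339 and 246 bp in KrasLA1;Dicer1S2D replicates 1 and 2, against 656 bp and 0 in KrasLA1 replicates 1 and 2. The next, 7400 bp from the end (chr2:163580307-163580656), had 345 and 240 bp in the KrasLA1;Dicer1S2D tumours and 0 in both KrasLA1 tumours. Of the 13 regions it was the 1 that both KrasLA1;Dicer1S2D libraries and no KrasLA1 library held, against 0.596% of all autosomal regions. Its peaks were of modest width, wider than or equal to 40.1% and 15.7% of peaks in their libraries, and no region of this kind was left with the widest 75% of peaks.

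In total, Hnf4a had 2393 and 888 bp under peaks in KrasLA1;Dicer1S2D replicates 1 and 2, against 2217 and 195 bp in KrasLA1 replicates 1 and 2. The replicate 1 tumours were the high ones in both genotypes, and the groups overlapped. The means were 1640.5 ± 1064.2 bp in KrasLA1;Dicer1S2D and 1206 ± 1430 bp in KrasLA1 (SD, n = 2 each). On the log2(bp + 500) scale, centred on the median of each library, the difference was 0.68 ± 0.71 (SE; limma over 16361 genes, Benjamini-Hochberg adjusted p = 0.99997), at or above that of 99.0% of genes. It was -0.39 without KrasLA1 replicate 2, which had 44654 peaks in all and 1 peak at Hnf4a, so its sign rests on that library. Within a replicate number the genotypes differed by 176 bp (replicate 1) and 693 bp (replicate 2), and within a genotype replicate 1 exceeded replicate 2 by 1505 bp in KrasLA1;Dicer1S2D and 2022 bp in KrasLA1. On the centred log2 scale these replicate differences, 0.87 and 2.14, were higher than or equal to those of 96.7% and 99.9% of genes.

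**Figure D2:**
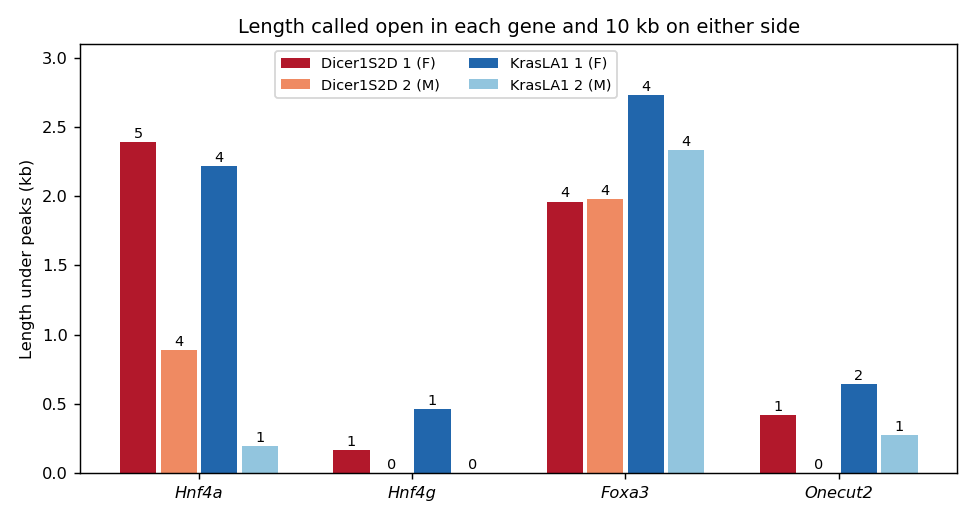
Length under peaks in kb in each gene and 10 kb on either side, 1 bar per library with its number of peaks above it; Dicer1S2D stands for KrasLA1;Dicer1S2D, F for female and M for male. Hnf4a, Hnf4g and Onecut2 were higher in both replicate 1 libraries than in both replicate 2 libraries, and Foxa3 had 4 peaks in each.

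Hnf4g, the paralogue of Hnf4a, had a single region (chr3:3507892-3508364), which spans the lower annotated end of the gene, with 138 bases outside and 335 inside. It had a peak of 162 bp in KrasLA1;Dicer1S2D replicate 1 and 0 in replicate 2, against 463 bp in KrasLA1 replicate 1 and 0 in replicate 2. As at the upstream Hnf4a start, both female tumours had a peak and both male tumours had 0. The peak of KrasLA1;Dicer1S2D replicate 1 was narrow, wider than or equal to 2.38% of its library's peaks, and that of KrasLA1 replicate 1 was at 51.3%.

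The remaining 151436 bases of Hnf4g, and the 10 kb beyond, held no region, and the nearest one lay 101376 bp past the upper end and was called in all 4 libraries. A long gene with this few regions is common: of 1437 coding genes at least as long, 22.6% had at most 1 region and the median was 5. The difference between genotypes at Hnf4g was -0.13 ± 0.38 on the log2 scale (SE; limma, adjusted p = 0.99997), and the groups overlapped at 0. It was 0.43 without KrasLA1 replicate 1. Replicate 1 exceeded replicate 2 by 162 bp in KrasLA1;Dicer1S2D and by 463 bp in KrasLA1.

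Foxa3 was open in all tumours, with 4 regions called in every library. The widest (chr7:19023330-19024790) covers the Foxa3 start and that of Sympk, which encodes a scaffold of mRNA 3′-end processing and whose gene begins 838 bp away, so the openness of one start cannot be told apart from that of the other by this region alone. Its peaks were 1123 and 1273 bp in KrasLA1;Dicer1S2D replicates 1 and 2, against 1307 and 985 bp in KrasLA1 replicates 1 and 2. All 4 libraries had the whole of the 250 bases before the Foxa3 start under a peak, core promoter box included, and the widths of the groups overlapped. The log2 width difference was 0.24 ± 0.30 (SE; limma over 26402 autosomal regions called in all 4 libraries, adjusted p = 0.999).

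A region 649 bp past the other end of Foxa3 (chr7:19012083-19012634) was narrower in KrasLA1;Dicer1S2D, with 215 and 182 bp against 331 and 552 bp in KrasLA1. The groups did not overlap, but the share of the 26402 regions whose widths separate in this way was not counted. In bp under peaks per gene, 27.6% of 16361 genes had both KrasLA1;Dicer1S2D values below both KrasLA1 values. The log2 width difference of -0.95 ± 0.25 (SE) had an unadjusted p of 0.0121 and did not pass the adjustment over 26402 regions (limma, adjusted p = 0.999). Its sign was the same in every setting tried, from -1.20 to -0.70. Across all these regions 0% passed an adjusted p of 0.05 and 770 an unadjusted p of 0.05, and the median difference was 0.04.

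The other 2 regions counted for Foxa3 lie nearer to Irf2bp1, a transcriptional co-repressor gene. The one over the start of Irf2bp1, 8441 bp from Foxa3 (chr7:19003952-19004842), had 420 and 435 bp in KrasLA1;Dicer1S2D and 891 and 658 bp in KrasLA1. These widths did not overlap, but the share of regions that separate in this way was not counted here either. Centred on the library median, the log2 widths were -0.54 and -0.37 against 0.56 and -0.12. The log2 width difference at this region, -0.68 ± 0.29 (SE), did not pass the adjustment (limma, adjusted p = 0.999). Leaving out KrasLA1 replicate 1 gave -0.34 and leaving out KrasLA1 replicate 2 gave -1.01. The one 9798 bp from Foxa3 (chr7:19002922-19003485), the farthest region inside the 10 kb window, had 539 and 428 bp against 537 and 502 bp. The nearest region outside it lay 18079 bp away and was called in KrasLA1 replicate 2 alone. Just outside the window of Hnf4a, 12264 bp from it, was a region called in all 4 libraries.

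Over the gene and its flanks, Foxa3 had 1961 and 1982 bp under peaks in KrasLA1;Dicer1S2D replicates 1 and 2, against 2732 and 2336 bp in KrasLA1 replicates 1 and 2. Both KrasLA1;Dicer1S2D values were below both KrasLA1 values in bp, as for 27.6% of 16361 genes, and they overlapped once each library was centred on its median. The centred log2 difference was -0.16 ± 0.21 (SE; limma, adjusted p = 0.99997), and it was 0.29 in the gene body alone. The gene body holds only the end of the region over the start, a stretch shorter than the pseudocount of 500 bp. The value of 0.29 is therefore one near the floor.

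**Figure D3:**
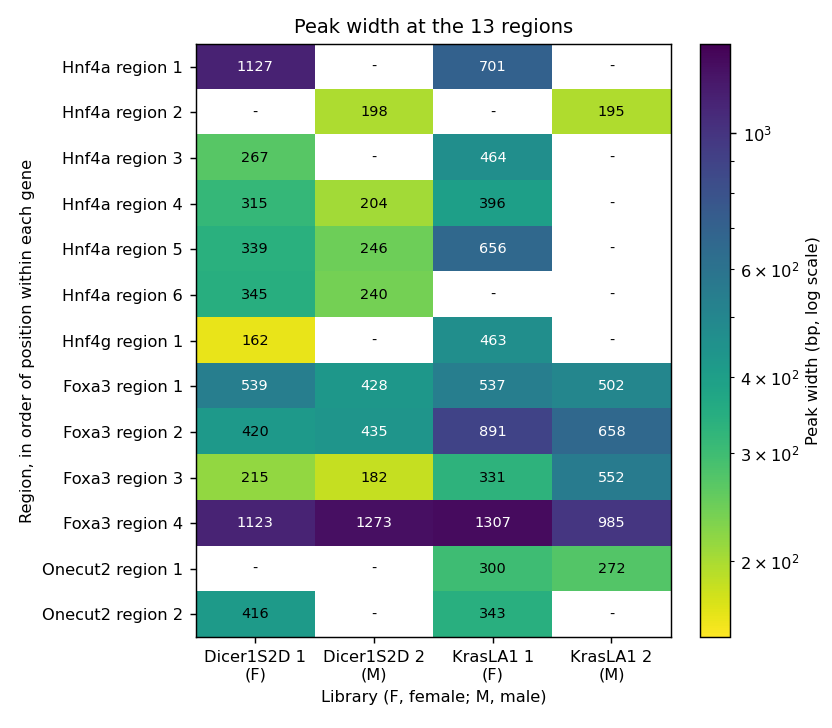
Width in bp of the peak in each library (columns) at the 13 regions (rows, in order of position in each gene), with a dash where no peak was called and colour on a log scale; Dicer1S2D stands for KrasLA1;Dicer1S2D. The 4 Foxa3 regions are filled in every column, Hnf4a region 6 in the KrasLA1;Dicer1S2D columns and Onecut2 region 1 in the KrasLA1 columns.

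Onecut2 had 2 regions, and KrasLA1;Dicer1S2D replicate 2 had a peak in neither of them. The region inside the gene, 2551 bp from its lower end (chr18:64342583-64343060), had 0 in both KrasLA1;Dicer1S2D tumours and 300 and 272 bp in the KrasLA1 tumours. Of the 13 regions it was the 1 that both KrasLA1 libraries and no KrasLA1;Dicer1S2D library held, against 1.42% of autosomal regions. The 2 KrasLA1 peaks shared 94 bases, and with an overlap of 50% of the narrower peak they formed separate regions.

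The second Onecut2 region, 6709 bp beyond the upper end (chr18:64405197-64405612), had 416 bp in KrasLA1;Dicer1S2D replicate 1 and 0 in replicate 2, against 343 bp in KrasLA1 replicate 1 and 0 in replicate 2. It therefore had a peak in both female tumours and in neither male tumour. The next regions lay 89987 and 150637 bp from the gene. In total Onecut2 had 416 and 0 bp in KrasLA1;Dicer1S2D replicates 1 and 2, against 643 and 272 bp in KrasLA1 replicates 1 and 2, a log2 difference of -0.34 ± 0.35 (SE; limma, adjusted p = 0.99997). The groups overlapped. Leaving out KrasLA1 replicate 1 gave 0.034, and leaving out KrasLA1;Dicer1S2D replicate 2 gave 0.0027.

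Of the 13 regions, 11 and 8 were called in KrasLA1;Dicer1S2D replicates 1 and 2, against 11 and 6 in KrasLA1 replicates 1 and 2. The same libraries held 78.8% and 54.9% of all autosomal regions in KrasLA1;Dicer1S2D, against 66.0% and 71.8% in KrasLA1. KrasLA1 replicate 2 thus had the fewest of the 13 regions and not the fewest of all regions. With every region holding 1 peak per library, the mean was 9.5 ± 2.12 peaks in KrasLA1;Dicer1S2D and 8.5 ± 3.54 in KrasLA1 (SD, n = 2 each; exact two-sided permutation test, p = 1, where 0.333 is the smallest p that 2 against 2 allows). Leaving out KrasLA1 replicate 2 turned the difference of 1 peak to -1.5, and leaving out KrasLA1;Dicer1S2D replicate 1 to -0.5. Within replicate 1 it was 0 peaks and within replicate 2 it was 2.

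Both replicate 1 libraries and neither replicate 2 library held 4 of the 13 regions, 2 at Hnf4a and 1 each at Hnf4g and Onecut2, against 6.61% of autosomal regions. Both replicate 2 libraries alone held 1, at Hnf4a, against 2.31%. All 4 libraries held 4, those of Foxa3, against 43.5% of autosomal regions, and 0 regions were called in a single library, against 27.7%. Hnf4a, Hnf4g and Onecut2 each had more bp under peaks in both replicate 1 libraries than in both replicate 2 libraries, in bp and after centring, as did 16.9% and 17.6% of genes. Sex and replicate number are the same division here and cannot be told apart, and each library is also a different mouse. Replicate 1 had more peaks than replicate 2 in KrasLA1;Dicer1S2D (50282 and 34767) and fewer in KrasLA1 (41621 and 44654), and the part of peak number was not tested.

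The 4 genes differed in how much of their window was open. Per kb of gene and flanks, Foxa3 had 64.8 to 90.3 bp under peaks over the 4 libraries, Hnf4a 2.26 to 27.8 bp, Onecut2 0 to 8.20 bp and Hnf4g 0 to 2.70 bp. Over gene and flanks together, Foxa3 was above the other genes in every library. Its window takes in the region over the Irf2bp1 start and the region that Foxa3 shares with the Sympk start. The ranking is therefore that of the window and not of Foxa3 alone. Its window spans 30257 bp around a gene of 10257 bp, and most of its peak length lay outside the gene body. Of its regions, only the one over the start reaches into the gene, and that region begins 10047 bp above the lower end. Density in gene bodies alone was not compared. The ranges of Hnf4a and Onecut2 overlapped, as did those of Onecut2 and Hnf4g, and in KrasLA1 replicate 2 Onecut2, with 3.47 bp per kb, was above Hnf4a.

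**Figure D4:**
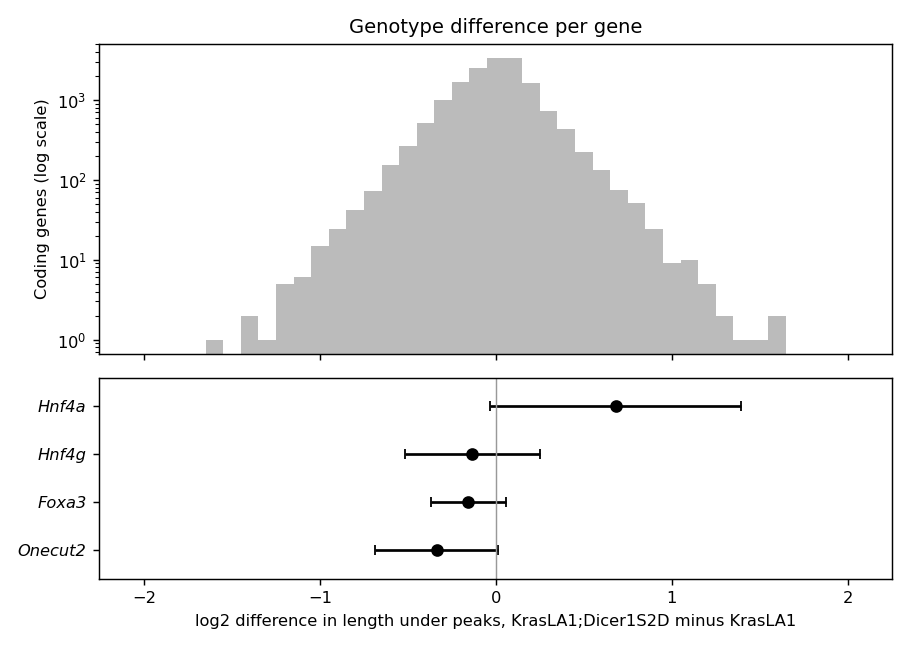
Upper panel, number of coding genes (log scale) by their log2 difference in length under peaks, KrasLA1;Dicer1S2D minus KrasLA1; lower panel, the 4 genes with their standard errors. Hnf4a lies at 0.68, at or above 99.0% of genes but within 1 SE of 0, and the other 3 genes lie at -0.13 to -0.34.

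No gene passed the genotype test on bp under peaks: 0 of 4 here and 0% of 16361 coding genes passed an adjusted p of 0.05, and 292 passed an unadjusted p of 0.05 (limma). Over the 4 genes 1 difference was positive and 3 were negative, and the median over all genes was 0.01.

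Genes of partner factors were examined in the same way. Of 15 such genes, among them Foxa1, Foxa2, Onecut1 and Nr5a2, all 15 had a region, against 74.8% of 21887 coding genes, 0 had a region called in both KrasLA1;Dicer1S2D libraries alone and 0 one in both KrasLA1 libraries alone. Among 15882 autosomal coding genes with a region the shares were 1.78% and 4.87%. Partners had 73 and 50 peaks in KrasLA1;Dicer1S2D replicates 1 and 2, against 54 and 62 in KrasLA1, so KrasLA1 replicate 2 had more partner peaks than KrasLA1 replicate 1. Both replicate 1 libraries alone held a region at 0 of the 15, against 14.9% of genes, and both replicate 2 libraries alone at 2 of the 15, against 7.19%.

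Of 16 genes known as targets of HNF4 in gut or liver, 13 had a region, near the 74.8% of all coding genes, and Apoa4, Krt20 and Myo1a had none. Mttp, which loads lipid onto apolipoprotein B, was the 1 of these 13 with a region in both KrasLA1 libraries alone, against 4.87% of autosomal coding genes with a region, and 0 had one in both KrasLA1;Dicer1S2D libraries alone, against 1.78%. Mttp had 451 and 0 bp under peaks in KrasLA1;Dicer1S2D replicates 1 and 2, against 1435 and 253 bp in KrasLA1 replicates 1 and 2, so the groups overlapped. In bp under peaks, Apob was higher in KrasLA1;Dicer1S2D, with 1398 and 878 bp against 215 and 0 bp in KrasLA1. Both values were above both KrasLA1 values, as for 324 of 16361 genes. Cdhr2 separated the other way, with 981 and 986 bp against 1056 and 1059 bp, as did 27.6% of genes. Neither was tested apart from the fit over all genes. Target genes held 23 and 15 peaks in KrasLA1;Dicer1S2D, against 22 and 17 in KrasLA1, more in replicate 1 than in replicate 2 in both groups. Apoa1 and Apoc3, both on chromosome 9, each had 1 region with the same bp (384 and 588 against 513 and 573). These totals and the 13 genes may therefore count 1 region for both. Both replicate 1 libraries alone held a region at 2 of the 13, against 14.9% of genes with a region, and both replicate 2 libraries alone at 0, against 7.19%. The counts of 1 and 2 are near the shares over all genes.

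The genes whose bp under peaks over the 4 libraries were nearest to those of Hnf4a, by Euclidean distance, were B4galt6 (490.1 bp away), Adgrg6 (513.8 bp) and Slc2a10 (581.4 bp). B4galt6, a glycosphingolipid synthase gene, had 2342 and 1122 bp in KrasLA1;Dicer1S2D, against 2637 and 275 bp in KrasLA1, with the same high replicate 1 libraries. Nkain2, a gene for a protein that binds the sodium pump, was near to Hnf4g (17.7 bp, with 157 and 0 bp against 480 and 0 bp), as was Dppa4. Skil, a repressor of TGF-beta signalling, was nearest to Foxa3 (72.9 bp), followed by Cep250 and Cfl1. Art4, an ADP-ribosyltransferase gene, was nearest to Onecut2 (81.0 bp, with 478 and 0 bp against 615 and 316 bp), followed by Paqr6 and Gm281. The distances compare levels over 4 libraries and describe nothing more.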

How the data were processed

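Group, replicate number, sex and age came from the labels. Per the labels' protocols, dissected tumour was snap frozen and sent to Active Motif for libraries, sequencing and analysis. Tools listed in the submitters' processing notes are deepTools 3.5.1, MACS3 3.0.0 and BWA 0.7.12; the sources used here do not say how each was used or whether reads were shifted for the transposase. Per the file headers, the authors deposited 5 tracks of mm10 intervals: peaks called in each library and merged regions, with names and no score. Merging peaks that overlap by 1 bp gave the authors' 61972 regions. A peak under an unknown threshold is recorded as absent. Genes, starts and sequences came from RefSeq tables for GRCm38.p6, without exons, so introns and UTRs were not annotated; gene ends are "lower" and "upper" where no strand was used.

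Length under peaks per gene (10 kb flanks, clipped at the window, log2 with a pseudocount of 500 bp) and peak width of regions called in all 4 libraries were compared with limma 3.58.1 in R 4.3.3 over all genes or regions, centred on library medians, with Benjamini-Hochberg adjustment. Zero sample variances were offset by limma. Python 3.11.15 and numpy 2.4.6 did the rest, with exact permutation of libraries for totals. Steps were tested on simulated data. Named genes were the 4 genes, the 3 genes nearest to each by Euclidean distance of length under peaks, and partner or target genes with a region in both libraries of 1 genotype alone. Apob and Cdhr2 were named outside this rule, after their values were seen. 1 gene that this rule names is not reported here. The genes and lists were chosen with earlier results of these data known, and the motifs with the sequences in view. Replicates are separate mice. The limma p-values set a difference between groups against the spread between these samples, with variances moderated over all genes or regions.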

Additional observations from a re-analysis of the deposited data

How the results depend on the processing

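The count of genes past the threshold was 0 of 4 under all 11 alternatives, and that of width differences at the 4 Foxa3 regions 0 under all 6. Regions in both KrasLA1;Dicer1S2D libraries alone numbered 1, but 0 in gene bodies alone and 0 with the widest 75% of peaks, and 1 to 3 with 1 library left out. Regions in both KrasLA1 libraries alone numbered 1, but 0 with an overlap of 50% of the narrower peak and 0 with 34767 peaks per library, and 1 with any library left out. The peak difference of 1 was -0.5 in gene bodies, -1.5 with the widest 75% of peaks and -1.5 to 3.5 with 1 library left out. Signs of log2 differences that turned, all with an adjusted p of 0.911 or more (limma), were those of Foxa3 in the gene body (0.29), of the width of the farthest Foxa3 region without centring (-0.11) and of several values with 1 library left out. Leaving out 1 library gave -0.39 to 1.75 for Hnf4a, -0.69 to 0.43 for Hnf4g, -0.34 to 0.026 for Foxa3 and -0.71 to 0.034 for Onecut2. The other settings gave 0.18 (widest 75% of peaks) to 1.10 (pseudocount of 100 bp) for Hnf4a, -0.38 (that pseudocount) to -0.13 for Hnf4g, -0.29 (no centring) to 0.29 for Foxa3 and -1.04 (that pseudocount) to -0.022 (equal numbers or the widest 75% of peaks) for Onecut2. For widths, leaving out 1 library gave -0.12 to 0.22 at the farthest Foxa3 region, -1.01 to -0.34 at the Irf2bp1 start and -0.084 to 0.56 at the Foxa3 start, where the value without centring was 0.076. The cause was not tested. With 1 library left out, the lone library of a group is assumed to vary like the others. A replicate block called 0 genes and 0 regions, as without it, and the deviations of same-numbered libraries correlated at 0.178 over genes. Read depth is unknown, so an uncalled peak is not shown to be closed chromatin.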
